A study of Mus musculus with 2 samples.

Results

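Of the 43346 mouse genes in the deposited gene tables, 7 are described here: Ptgds, Apoe, Apod, Clu, Cst3, Dbi and Ttr. They were chosen by name as abundant secreted or lipid-binding products of glia, meninges and choroid plexus, and each had 1 row in both gene tables. The data are 2 RNA-seq libraries of whole midbrain from newborn mice (postnatal day 0) of the B6NCrl strain, 1 library from pup 1 and 1 from pup 3. Each was amplified with a SMART-type protocol from 13 pg of RNA, an amount the labels equate with 1 cell, with synthetic spike-in RNAs, so the labels' name for the assay, single-cell RNA-seq, refers to the amount and not to an isolated cell. No treatment or allele is named, sex was not collected, the labels name the same donor record for both pups, and the pups form 1 group without a contrast. A two-sided exact test over 2 pups cannot go below p = 0.5, so none was run. The pups stand side by side as 2 libraries, with no replicate check on any difference.

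Lipids and lipid-soluble hormones move through the fluid spaces of the brain on carrier proteins. Astrocytes and microglia secrete apolipoprotein E particles that neurons take up through endocytic receptors. The cells of the leptomeninges make prostaglandin D synthase, a lipocalin that both synthesises prostaglandin D2 and binds lipophilic molecules in cerebrospinal fluid. The choroid plexus epithelium makes transthyretin, the thyroxine carrier of that fluid. Of the 7 genes, Ptgds, Apoe, Apod, Clu and Ttr encode such secreted carriers. Cst3 encodes a secreted protease inhibitor and Dbi an intracellular acyl-CoA binding protein, so the name lipid carrier covers them only loosely.

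At a threshold of 1 TPM, a length-corrected share of transcripts, 6 of the 7 genes were detected in both libraries, against 17% of all mouse genes. Ttr was the exception. Together the genes took 0.333% of mouse gene counts in pup 1 and 0.485% in pup 3, of 26037002 and 32408655 expected counts. None overlaps another annotated gene, and the deposited posterior SD of the count was under 0.1 reads for all 7. In a whole tissue, fewer cells of a type and less RNA per cell cannot be told apart in these levels.

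**Figure D1:**
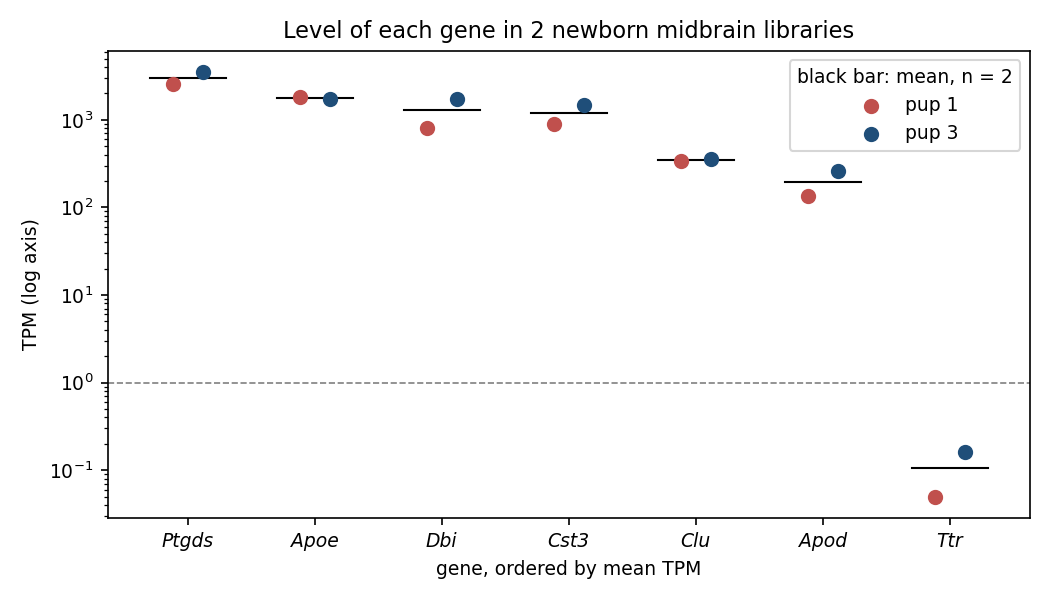
TPM of the 7 genes in pup 1 (red, left) and pup 3 (blue, right) on a log axis, with a black bar at the mean of n = 2 and a dashed line at the detection threshold of 1 TPM. Ptgds is highest in either library, 6 genes lie above 100 TPM, and Ttr lies below 1 TPM at 0.05 and 0.16.

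By mean level the order was Ptgds, Apoe, Dbi, Cst3, Clu, Apod and Ttr. Ptgds stood above Apoe, Cst3 above Clu, Clu above Apod and Apod above Ttr in both pups, and in these 4 neighbouring pairs the deposited TPM intervals were apart in both libraries. The places of Apoe, Dbi and Cst3 were not fixed. In pup 1 Apoe came before Cst3 and Dbi, whereas in pup 3 Dbi and Apoe read 1746 and 1743 TPM with overlapping intervals, and Cst3 came after them. The intervals surround the deposited posterior mean TPM, which is a little below the deposited TPM, so the TPM itself can lie above its interval.

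Ptgds (ENSMUSG00000015090.9, GRCm38 chromosome 2, 25466709 to 25470046, minus strand) encodes prostaglandin D synthase of the lipocalin type. It read 2555 TPM from 29742 counts in pup 1 and 3513 TPM from 56442 counts in pup 3, a mean of 3034 ± 678 TPM (SD, n = 2). This placed it 28th among mouse genes in pup 1 and 26th in pup 3. On counts scaled by the library total over mouse genes, pup 1 held 0.656 times the level of pup 3, with an exact (Clopper-Pearson) 95% interval of 0.647 to 0.665 that covers counting error only. Of the 1667 genes with a mean of 100 TPM or more, 50.03% differed less between the pups. The protein-coding genes nearest to it over the 2 libraries, by Euclidean distance of log2(TPM + 1), included Calm2 (0.10), which encodes a calcium sensor, and the neuronal reticulon gene Rtn1 (0.21).

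Most Ptgds RNA was assigned to 3 transcripts that share all coding exons, for a protein of 189 residues, and differ in their untranslated ends. They held 98.1% of the gene's abundance in pup 1 and 87.3% in pup 3. Ptgds-202 led in either library with 60.9% and 51.9%, followed by Ptgds-203 with 31.9% and 31.6% and Ptgds-201 with 5.38% and 3.84%. Ptgds-204, which has no annotated coding region, took 1.80% in pup 1 and 10.9% in pup 3, from 409 and 4741 counts with posterior SDs of 136 and 277. Ptgds-202 starts 297 bases upstream of Ptgds-203 and splices its first exon, of 37 bases, over 275 bases of intron into the exon that Ptgds-203 reads straight through. The 30 bases around that place are a sequence in which the 2 leading transcripts differ. They need not be the only difference, as the transcripts are 830 and 775 bases long, and Ptgds-201 was not compared there. In the lines below, taken from GENCODE M21, capitals mark the 15 bases before that place. These come from the separate first exon in Ptgds-202 and from the start of the first exon in Ptgds-203.
Ptgds-202: CATCCCCACTGTGAGttttccttgctttgt
Ptgds-203: GCTCCTTCTGCCCAGttttccttgctttgt

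The 250 bases before the RefSeq start of Ptgds are shown because this start is that of Ptgds-203, not of the leading transcript. They lie wholly inside the first intron of Ptgds-202, and the start of Ptgds-201 falls within them. The window of Apod, which lay far apart between the pups, is set beside it, though Dbi lay farther apart. The Apod window precedes the start of Apod-203, and the leading Apod-201 starts 214 bases downstream of that start. Both windows are from RefSeq (GRCm38.p6), on the minus strand and written 5′ to 3′ along the gene. Capitals mark matches to CANNTG, the E-box.
Ptgds chr2:25469750-25469999: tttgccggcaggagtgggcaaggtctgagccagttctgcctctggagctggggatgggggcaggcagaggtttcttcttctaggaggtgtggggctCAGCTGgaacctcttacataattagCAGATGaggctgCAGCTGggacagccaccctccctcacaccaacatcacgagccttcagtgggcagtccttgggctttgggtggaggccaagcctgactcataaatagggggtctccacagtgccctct
Apod chr16:31314809-31315058: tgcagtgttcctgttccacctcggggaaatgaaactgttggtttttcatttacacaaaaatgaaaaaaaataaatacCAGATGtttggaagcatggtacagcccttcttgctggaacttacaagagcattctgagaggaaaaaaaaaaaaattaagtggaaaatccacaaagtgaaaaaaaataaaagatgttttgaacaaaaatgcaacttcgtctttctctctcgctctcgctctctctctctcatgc
The search ran on both strands and covered the TATA box (TATAAA), the CAAT box (CCAAT), the GC box (GGGCGG) and the E-box. CANNTG matched 3 times in the Ptgds window and 1 time in that of Apod, and 66.2% of all 32851 windows of this length held it. The first 3 motifs, held by 12.4%, 33.8% and 32.7% of all windows, had 0 matches in these. The window of Apoe had 0 matches to any of the motifs. That of Cst3 had 1 to GGGCGG and 1 to CANNTG, and that of Dbi 2 to CANNTG. These windows, too, do not end at the leading transcript. It starts 180 bases downstream of the RefSeq start for Apoe, 18 downstream for Dbi and 64 upstream, within the window, for Cst3. The windows differed in base composition. G and C made up 36.4% of the Apod window, lower than in all but 6.24% of windows. They made up 58.4% for Ptgds, 57.2% for Apoe, 59.6% for Cst3 and 61.6% for Dbi. A link between base composition and the difference between the pups was not tested.

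Of the 9 other genes of prostaglandin D2, 0 passed 1 TPM in both libraries, 2 in pup 1 alone and 7 in no library. Over all mouse genes 6.41% passed it in pup 1 alone and 4.56% in pup 3 alone. Hpgds, the haematopoietic enzyme that makes the same product, had 14.6 TPM from 791 counts in pup 1 against 0 in pup 3, and the prostaglandin transporter Slco2a1 14.9 TPM from 1096 counts against 0. The receptors Ptgdr (0.74 and 0) and Ptgdr2 (0.52 and 0) stayed below 1 TPM. Of the cyclooxygenases, which supply the substrate, Ptgs1 read 0 and 0.33 and Ptgs2 0 in both, and Pla2g4a, Abcc4 and the degrading enzyme Hpgd were also at 0. Of 12 other prostanoid synthases and receptors only Ptges3, better known as the Hsp90 co-chaperone p23, was detected in both, at 227 and 293 TPM. Ptger1, a prostaglandin E2 receptor, read 0.37 and 22.6, Ptges 0.28 and 0 and Ptges2 0.03 and 0, and the remaining 8 were at 0: Ptgis, Tbxas1, Ptger2, Ptger3, Ptger4, Ptgfr, Ptgir and Tbxa2r.

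Apod (ENSMUSG00000022548.10, chromosome 16, 31296192 to 31314808, minus strand) encodes apolipoprotein D, a lipocalin that binds arachidonic acid and is made by glia and perivascular cells. It was the lowest of the 6 detected genes, with 133 TPM from 1996 counts in pup 1 and 259 TPM from 5520 counts in pup 3, a mean of 196 ± 89.2. The count ratio of pup 1 over pup 3 was 0.450 (interval 0.427 to 0.474), and 79.3% of genes at 100 TPM or more differed less. Ptgds exceeded Apod by a log2 ratio of 4.25 in pup 1 and 3.75 in pup 3. Nearest to Apod in level were Tomm5 (0.05), Lars2 (0.05) and Snrpd2 (0.07), which serve mitochondrial import, mitochondrial translation and splicing.

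Its leading transcript in either pup was Apod-201, with 74.6% of abundance in pup 1 and 78.1% in pup 3. GENCODE M21 classes this transcript as a retained intron and gives it no coding region, yet its exons contain every coding exon of Apod-202, which encodes 189 residues. Apod-202 held 22.5% and 18.1%. The pair join the same second exon from donor sites 153 bases apart, as the 15 bases of the first exon, in capitals, and of the second show.
Apod-201: CCTCAGACTTCTAAGgcctctcctgcagcc
Apod-202: CATCTGATCTGAGAGgcctctcctgcagcc
Together the transcripts with an annotated Apod coding region held 24.6% in pup 1 and 21.7% in pup 3. With Apod-201 counted among them the share would be 99.2% and 99.8%, and its class in GENCODE M4, the annotation behind the deposited values, was not examined here.

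Among the 11 lipocalin and retinoid carriers 5 were detected in both libraries. Besides Ptgds and Apod these included Crabp2, a cytosolic retinoic acid binding protein (41.9 and 36.5 TPM), and Stra6, the cell surface receptor for retinol binding protein (8.85 and 12.9). The secreted Rbp4, which circulates bound to transthyretin, read 0 and 0.32, Lcn2 0.08 and 0, and Rbp2, Crabp1 and Orm1 were at 0.

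Apoe (ENSMUSG00000002985.11, chromosome 7, 19696109 to 19699188, minus strand) encodes the main apolipoprotein of brain lipoproteins. It read 1804 TPM from 28946 counts in pup 1 and 1743 TPM from 38560 counts in pup 3, with a mean of 1774 ± 43.2. The pups were close, and 8.46% of genes at 100 TPM or more differed less. The count ratio of pup 1 over pup 3 was 0.934 (0.920 to 0.949) when scaled by total gene counts, 1.07 with TMM or DESeq2 size factors and 1.01 with spike-in totals, and its TPM was also higher in pup 1, so its direction depends on the scaling. Within a library Ptgds exceeded Apoe 1.42-fold in pup 1 and 2.02-fold in pup 3 in TPM, a log2 ratio of 0.76 ± 0.36. Nearest to Apoe were Hsp90ab1 (0.22), a chaperone, the histone gene H3f3b (0.23) and Stmn3 (0.25), a microtubule regulator of neurons.

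Apoe-209 held 80.6% of Apoe abundance in pup 1 and 82.2% in pup 3. Apoe-202, which has no annotated coding region, followed with 11.2% and 11.7%, then Apoe-206 with 7.86% and 3.78%. Apoe-201 was assigned 0.19% and 2.09%. Apoe-209, Apoe-201, Apoe-206 and Apoe-205 share 1 coding region of 311 residues, and together held 88.7% in pup 1 and 88.1% in pup 3. Apoe-209 leaves its first exon at a donor 39 bases downstream of that used by Apoe-202, and both join the same second exon. Capitals mark the end of the first exon.
Apoe-209: CACCCAGGGACCTTGactggccaatcacaa
Apoe-202: TTTCGGAAGGAGCTGactggccaatcacaa

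**Figure D2:**
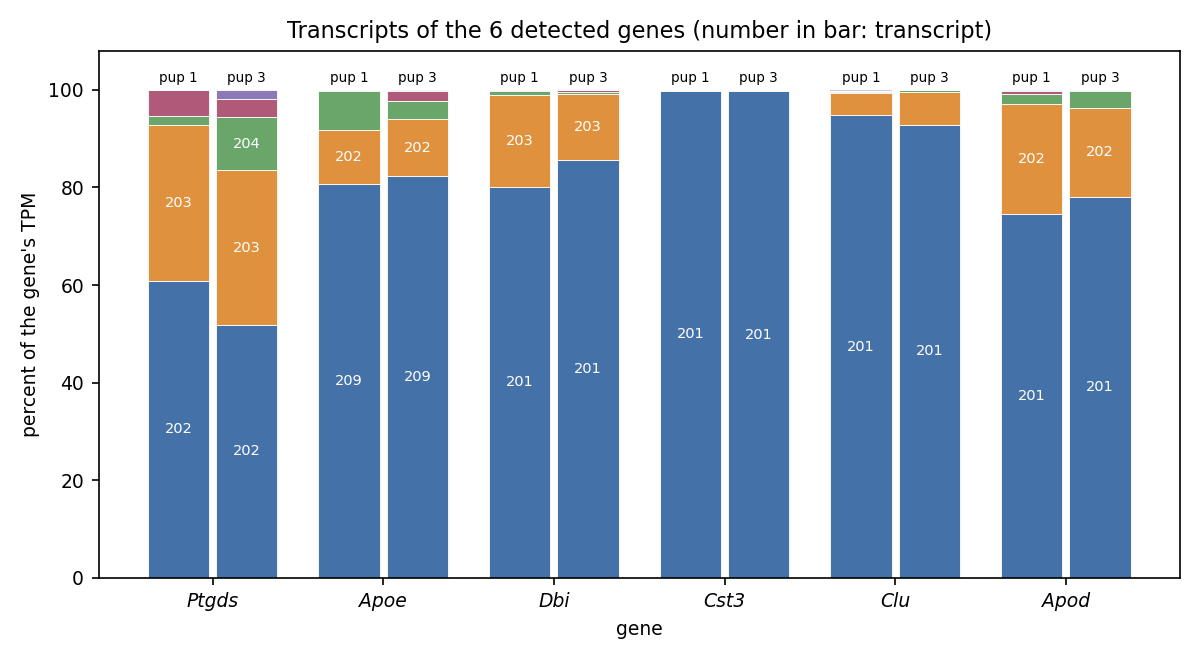
Percent of each gene's TPM assigned to its transcripts in pup 1 (left bar) and pup 3 (right bar), with transcript numbers in segments over 9% and rare transcripts in other colours. The same transcript leads in either pup for each of the 6 genes, and Ptgds-204 fills 1.80% of the left bar and 10.9% of the right.

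Clu (ENSMUSG00000022037.10, chromosome 14, 65968483 to 65981547, plus strand) encodes clusterin, a secreted chaperone also called apolipoprotein J. Its levels were 334 TPM from 9021 counts in pup 1 and 356 TPM from 13254 counts in pup 3, a mean of 345 ± 15.2. The count ratio was 0.847 (0.825 to 0.870), and 21.1% of genes at 100 TPM or more differed less. Apoe exceeded Clu by a log2 ratio of 2.43 in pup 1 and 2.29 in pup 3. Clu-201, with a coding region for 448 residues, held 94.7% and 92.8% of the abundance, and the shorter Clu-203 4.61% and 6.73%. Its nearest genes in level were Snx3 (0.06), Gng2 (0.07) and Psma3 (0.07).

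Of 15 genes named as apolipoproteins, 5 were detected in both pups: Apoe, Clu, Apod, Apoo and Apoa1. Apoo (43.4 and 139 TPM) encodes a protein of the inner mitochondrial membrane despite its name. Apoa1, the main apolipoprotein of plasma HDL, read 7.01 and 2.02. Apoc1, a small apolipoprotein that in brain comes from glia, read 0.19 in pup 1 and 32.5 in pup 3. Of the 9 genes of the list with at least 3 counts in a library, Apoc1 alone was over 4-fold apart. Of all 13480 genes tested in this way 44.4% were. Among the 9, Apoa2 (3 and 3 counts), Apoh (2 and 5) and Apob (0 and 3) had few counts and wide intervals. Apoc3, Apoa4, Apol8, Apom and Apool were at 0, so of this list Apoe, Clu and Apod alone passed 100 TPM in both libraries.

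Receptors and lipid-loading genes for these particles were expressed at lower levels than Apoe, and 9 of 20 passed the threshold in both libraries. Another 6 passed it in pup 1 alone, 4 in pup 3 alone, and Lrp5 in no library, where 6.41% and 4.56% of all mouse genes passed it in pup 1 alone and pup 3 alone. Bsg (554 and 782 TPM) led the list, although it is a partner of monocarboxylate transporters and not a lipoprotein receptor in the strict sense. Then came the phospholipid transfer protein Pltp (53.7 and 79.1), the HDL receptor Scarb1 (29.5 and 82.7) and Lrp1, an endocytic receptor for apolipoprotein E (76.7 and 25.2). Lrp8 and Vldlr, which neurons use for apolipoprotein E and reelin, read 7.02 and 43.0, and 11.3 and 27.2. The cholesterol exporters gave 34.97 and 28.4 for Abcg1, 4.47 and 19.3 for Abca1, and 78.4 and 0 for Abcg4. Lcat, which esterifies cholesterol on the particles, read 59.0 and 0, Trem2, a microglial receptor that binds apolipoprotein E, 15.5 and 0, and Lrp2 0 and 16.9. The genes after the first 4 were named after their values were seen. Of the 19 genes of this list with at least 3 counts in a library, 12 were over 4-fold apart between the pups, 6 in each direction. Of all genes tested 44.4% were, 25% higher in pup 1 and 19.3% higher in pup 3.

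**Figure D3:**
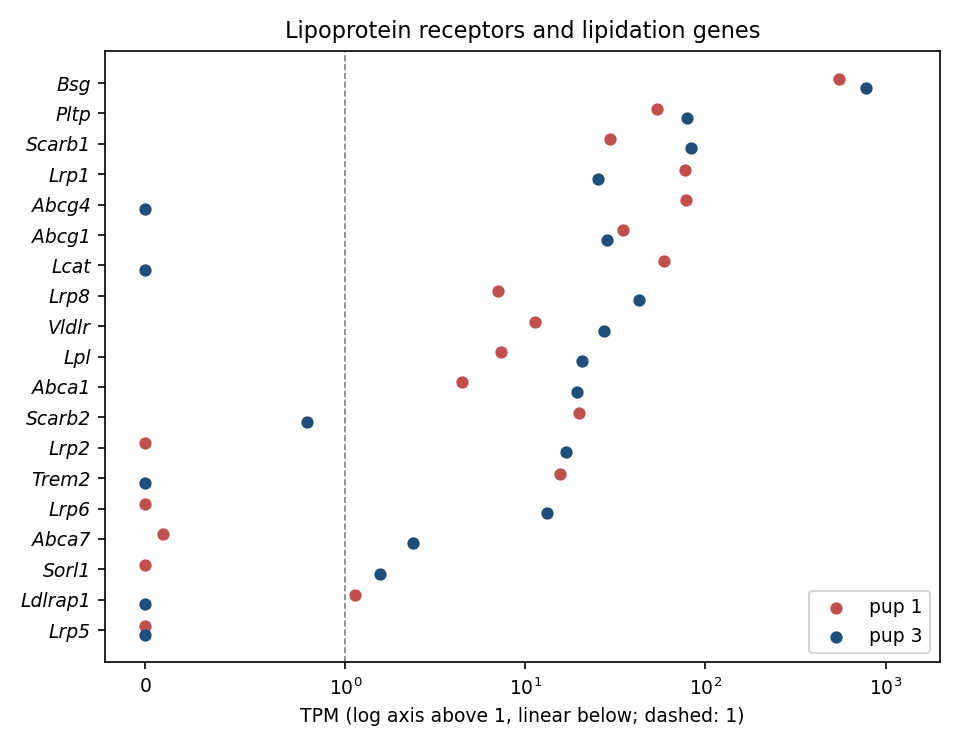
TPM of 19 lipoprotein receptor and lipidation genes in pup 1 (red, upper) and pup 3 (blue, lower), on an axis that is logarithmic above 1 TPM and linear below. Bsg is highest at 554 and 782 TPM, and 9 of these genes pass the dashed line at 1 TPM in a single pup.

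Cst3 (ENSMUSG00000027447.6, chromosome 2, 148871722 to 148875692, minus strand) encodes cystatin C, a secreted inhibitor of cysteine cathepsins. It read 906 TPM from 11225 counts in pup 1 and 1489 TPM from 25761 counts in pup 3, a mean of 1198 ± 412. The count ratio was 0.542 (0.530 to 0.555), and 66.5% of genes at 100 TPM or more differed less. Ptgds exceeded Cst3 by 1.49 in pup 1 and 1.24 in pup 3 on the log2 scale. Almost all of its abundance, 99.8% and 99.7%, was on a single transcript, which encodes 140 residues. The genes nearest in level were Rps29 (0.23), Dynlt1b (0.25) and Cox6b1 (0.26).

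Among 6 cystatins Cstb, the intracellular cystatin B, was the other one detected in both pups, at 92.4 and 104 TPM. Stfa1 read 0 and 0.28, and Cst6, Cst7 and Cst8 were at 0. Of 12 cathepsin and legumain genes 9 were detected in both. The aspartic protease Ctsd (194 and 321), legumain Lgmn (228 and 266), Ctsb (243 and 205) and Ctsl (133 and 154) led them, and the last pair are cysteine proteases that cystatin C inhibits. Ctsa, Ctss and Ctsc were over 4-fold higher in pup 1, as were 25% of all genes tested, and Ctsk was at 0. In either library Cst3 was above each cathepsin in TPM.

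Dbi (ENSMUSG00000026385.12, chromosome 1, 120113280 to 120121078, minus strand) encodes the acyl-CoA binding protein, also known as diazepam binding inhibitor, whose fragments act on GABA-A receptors. It read 812 TPM from 5774 counts in pup 1 and 1746 TPM from 17729 counts in pup 3, with a mean of 1279 ± 661. Of the 6 detected genes it lay farthest apart between the pups, with a count ratio of 0.405 (0.393 to 0.418), and 84.0% of genes at 100 TPM or more differed less. Dbi-201, which encodes 87 residues, held 80.1% and 85.7% of the abundance. Dbi-203, which begins at another first exon and has no annotated coding region, held 18.8% and 13.4%. Nearest to Dbi were Cox6b1 (0.02), a subunit of cytochrome oxidase, Uchl1 (0.12), a neuronal ubiquitin hydrolase, and the ATP synthase gene Atp5b (0.23). Cst3 over Dbi was 0.16 in pup 1 and -0.23 in pup 3 on the log2 scale, so no direction was given.

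Of 12 acyl-CoA and fatty acid binding genes 6 were detected in both pups. Fabp7, the fatty acid binding protein of radial glia (1385 and 2053 TPM), Fabp5 (577 and 990) and Fabp3 (198 and 374) accompanied Dbi. Each of these 4 genes read lower TPM in pup 1. On counts scaled by total gene counts, so did 60.02% of the 1666 genes at 100 TPM or more detected in both. Eci2, a peroxisomal enzyme with an acyl-CoA binding domain, read 84.2 and 47.6. Of the smaller relatives of Dbi, named after their values were seen, Acbd5 read 3.90 and 31.8, Acbd3 0.56 and 12.03, Acbd4 41.2 and 0.66, Acbd6 14.3 and 0 and Acbd7 17.04 and 0. Tspo, the mitochondrial protein that Dbi binds, read 0.08 and 42.6, and Tspo2 was at 0. Dbi was below Fabp7 by a log2 ratio of -0.77 in pup 1 and -0.23 in pup 3, and Clu by -2.05 and -2.53, whereas Apoe over Fabp7 was 0.38 and -0.24 and got no direction.

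Ttr (ENSMUSG00000061808.3, chromosome 18, 20665280 to 20674321, plus strand), the transthyretin gene, had 1 count in pup 1 and 4 in pup 3, or 0.05 and 0.16 TPM. The exact Poisson 95% intervals were 0.0253 to 5.57 and 1.09 to 10.2 counts. The limit that a count of 0 would allow, 3 counts, stands at 0.115 CPM in pup 1 and 0.0926 CPM in pup 3, against 0.0384 and 0.123 CPM for Ttr. The pups could not be told apart, with a count ratio of 0.311 and an interval of 0.00632 to 3.14. The other 6 genes had 1996 counts or more in each library.

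Markers of the choroid plexus stood beside it as follows. Of 10 markers 2 were detected in both pups, Enpp2 (17.4 and 115 TPM) and Sostdc1 (23.5 and 33.0), the list summing to 41.0 in pup 1 and 152 in pup 3. Prlr read 0 and 4.61 and Aqp1 0.02 and 0, while Kl, Folr1, Clic6, Kcnj13, Slc4a5 and Cldn2 were at 0. Of 6 ependymal markers, 0 were in both and Dynlrb2 (0 and 76.9), Rsph1 (0 and 32.9) and Tmem212 (0 and 10.8) were in pup 3 only, as were 4.56% of all mouse genes. Of 12 genes of thyroid hormone handling, which take up and read what transthyretin carries, 5 were detected in both. Thra, a thyroid hormone receptor, read 35.4 and 144, the transporter Slc7a8 9.05 and 19.3, and Slco1c1 9.18 and 15.4. Slc16a10, Dio1, Dio3 and Crym were at 0.

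The meningeal markers bear on the label of Ptgds, and 9 of 12 were detected in both pups, with a summed level of 503 TPM in pup 1 and 625 in pup 3. Igf2 (206 and 259), Dcn (51.1 and 111), the GABA transporter Slc6a13 (77.9 and 55.8) and Col3a1 (35.8 and 78.8) were highest, and Foxc1 and Slc47a1 were at 0. The markers did not all share the direction of Ptgds, which was lower in pup 1. Scaled by total gene counts, the median log2 ratio of the 9 was -0.41, against -0.61 for Ptgds. Of the 10 with at least 3 counts in a library, 6 read lower TPM in pup 1, and 4 read higher: Slc6a13, Col1a1 (26.2 and 3.49), Fmod (25.3 and 2.18) and Aldh1a2 (0.51 and 0). On scaled counts 5 were lower and 5 higher in pup 1 under each of the 4 scalings, Igf2 then being higher, with a ratio of 1.25 (1.20 to 1.30) by total gene counts. Ptgds exceeded Igf2 12.4-fold in pup 1 and 13.6-fold in pup 3, and Dcn by a log2 ratio of 5.62 and 4.97. The part of the meninges in the level of Ptgds was not tested.

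Radial glial and astrocyte markers, relevant to Apoe, Clu and Dbi, were detected in both pups for 14 of 15 genes and summed to 3641 and 3656 TPM. Fabp7, Aldoc (470 and 312), Sparcl1 (460 and 201.9) and Mt3 (263 and 296) led them, and Gfap was at 0. Microglial markers were detected in both for 6 of 12 (summed 268 and 210 TPM), with Tmem119 and Fcrls at 0, and perivascular macrophage markers for 1 of 6, Pf4 at 21.04 and 31.1 (29.4 and 58.0), with Cd163 at 0. Oligodendrocyte markers were in both for 5 of 10 (156 and 126), with Mag at 0, endothelial markers for 2 of 9 (200.7 and 188), with Slco1a4 and Tek at 0, and mural markers for 3 of 8 (121 and 138), with Anpep and Tagln at 0. Neuronal markers were in both for 10 of 10, with 11710 and 8043 TPM, of which Tubb3 had 5927 and 1794. Plasma and liver genes were in both for 3 of 8 (11.2 and 94.9), almost all of the second value being transferrin, Trf (1.93 and 89.5). The part of any of these cell types in a member's level was not tested.

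**Figure D4:**
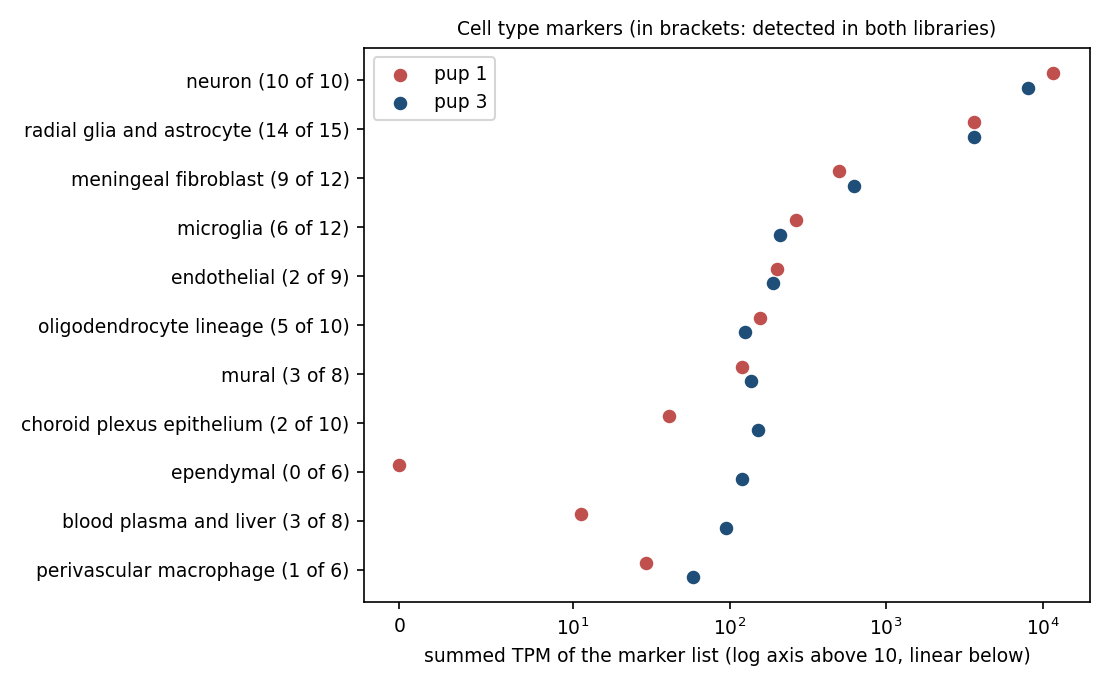
Summed TPM of 11 marker lists in pup 1 (red, upper) and pup 3 (blue, lower), on an axis logarithmic above 10 TPM and linear below, with the number of markers detected in both libraries in brackets. Meningeal markers sum to 503 and 625 TPM and choroid plexus markers to 41.0 and 152.

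Between the pups 0 of the 7 genes differed over 4-fold, that is with the whole exact interval of the count ratio beyond 4-fold, against 44.4% of 13480 genes with at least 3 counts in a library. Among the 1667 genes at 100 TPM or more it was 4.02%. For Ttr, with 1 and 4 counts, the interval of 0.00632 to 3.14 was too wide to tell, so the 0 speaks for the 6 detected genes. At 2-fold and scaled by total gene counts, Apod and Dbi were called, both lower in pup 1. Under the other scalings the Apod interval no longer lay wholly beyond 2-fold, whereas that of Dbi did. For Apod it was 0.488 to 0.541 by TMM, 0.491 to 0.544 by DESeq2 and 0.461 to 0.512 by spike-in totals. By total gene counts the 2-fold background was 59.8% of all genes tested and 28.2% in the direction of Apod and Dbi. Of the genes at 100 TPM or more it was 24.2% and 16.2%. The median distance of the 6 detected genes was 0.75 on the log2 scale by total gene counts. Over 1666 genes at 100 TPM or more detected in both it was 0.61. The median log2 ratio of the 6 was -0.75 by total gene counts, -0.56 by TMM, -0.55 by DESeq2 and -0.64 by spike-in totals. The distance of the 1666 genes was not recomputed under these scalings. Scaled by total gene counts all 6 were lower in pup 1, and by TMM, DESeq2 or spike-in scaling 5 of them, Apoe then being higher. Of the 1666 genes 60.02% were lower in pup 1 with a median log2 ratio of -0.22, which the other 3 scalings moved by 0.19, 0.20 and 0.11.

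**Figure D5:**
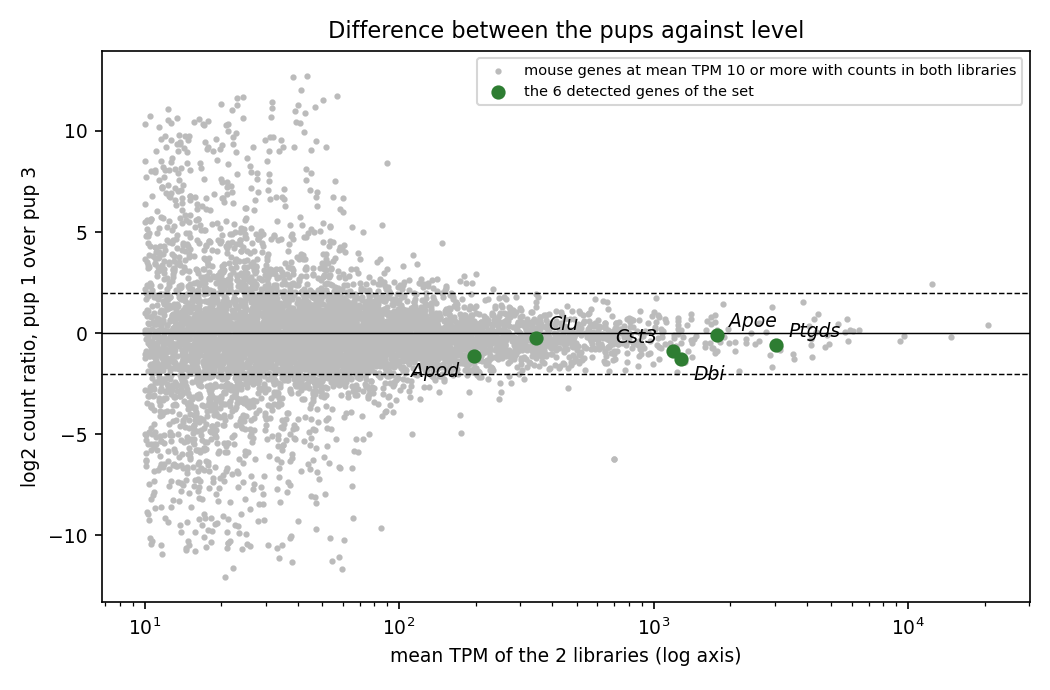
Log2 count ratio of pup 1 over pup 3 against mean TPM on a log axis, for mouse genes at 10 TPM or more with counts in both libraries (grey) and the 6 detected genes (green), with dashed lines at 4-fold. The green points lie between -1.30 for Dbi and -0.10 for Apoe, inside the lines, on counts scaled by total gene counts; Apoe turns positive under the other scalings.

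Over the pathway lists, 100 genes that are not in the set of 7 were examined, and 35 of them, 35%, were detected in both pups. Of the 65 with at least 3 counts in a library, 32 were over 4-fold apart, 18 higher in pup 1 and 14 higher in pup 3. This share of 49.2% is near the background of 44.4%.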

How the data were processed

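RNA of 2 newborn midbrains was measured in 2 libraries, 1 per pup, with totals of 26583225 and 33142647 expected counts over all rows. The assembly was mm10 and the annotation GENCODE M4, per the file headers. For the aligner, the counting program and strand handling, nothing is given in the sources used here. The deposited expected counts per gene are estimates that divide shared reads, and were rounded for intervals. The deposited TPM values are length-corrected shares of all rows, spike-ins included. The deposited percent of a gene's TPM on each transcript gave isoform shares. The deposited bounds of TPM and posterior SDs of counts were used as scores of uncertainty, as the file headers name them.

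GENCODE M21 (GRCm38, the same assembly as mm10) supplied coordinates and transcript classes, matched on identifiers without version; 38 of 41 transcripts of the 7 genes had the same length in the files. Detection meant 1 TPM. Ratios of pup 1 over pup 3 used counts scaled by the total over mouse genes, with exact 95% intervals, for genes with at least 3 counts in a library. Within-library log2 ratios used TPM + 1, and a direction needed the deposited intervals apart in both pups. Intervals cover counting error only, since amplified reads are not independent molecules. The rule for genes named was the 7 genes, up to 4 per list by mean TPM, list genes at 0, both genes of each ratio, and 3 nearest protein-coding genes per detected gene; any further gene was named after its values were seen. Some genes that the rule names, and some sequence, are not reported here. The genes and lists were chosen with earlier results of these data known. Python 3.11.15, numpy 2.4.6, pandas 2.3.3, scipy 1.17.1 and matplotlib 3.10.9 were used, with edgeR 4.0.16 and DESeq2 1.42.0 in R 4.3.3 for scaling factors only. The ratio rule was checked on simulated Poisson counts without amplification noise, so the check covers its arithmetic and not its behaviour in these libraries.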

Additional observations from a re-analysis of the deposited data

How the results depend on the processing

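Of 54 recomputed levels and within-library ratios, 49 moved by less than 1 SD of the pups. The ratios had 0 reversals, which says little, since pseudocounts of 0.1 or 10 hardly move genes at these levels. Levels have no direction. The count ratio of Apoe between the pups, which did turn with the scaling (0.934 against 1.07 and 1.01), is not among the 54. Of 50 recomputed counts 15 changed, 6 of them by over 1.5 times or from 0. Another 36 levels and ratios without 1 pup are that other pup's own values, which with 2 pups always lie within 1 SD of the mean and so say nothing about stability. The mean level of Apoe, whose pups were close, moved to 1724 TPM with posterior means, 1859 TPM over mouse genes only and 1968 TPM without mitochondrial genes; Clu moved to 362 TPM and 383 TPM under the last pair of settings. At 2-fold, 2 of the 7 genes, Apod and Dbi, were called in place of 0 when scaled by total gene counts. The call of Apod did not hold under the other scalings. At 0.1 TPM 8 apolipoproteins were detected in both libraries, and 2 other prostanoid genes, as at 10 counts; at 10 TPM 3 lipocalin and retinoid carriers and 2 thyroid hormone genes were. With either pup left out, 6 of the 7 genes were detected in the remaining one, the same 6 as in both. This alternative was added after the data were seen. Leaving out a pup from counts between pups leaves no comparison. No paired analysis was possible because the 2 libraries form a single group. Both depth and the input limit what can be said of Ttr and of list genes under 3 counts, where a miss in 13 pg of RNA cannot be told apart from absence. The same holds for genes at 0 in 1 pup with many counts in the other, such as Abcg4 (4291 and 0) and Lrp2 (0 and 1475).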
